A study of Mus musculus with 2 samples.

Results

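Adipogenic transcription regulators are the proteins that switch on the genes of a fat cell in a precursor cell. The 10 genes considered here were fixed as a list: Pparg, Cebpa, Cebpb, Cebpd, Zfp423, Ebf1, Ebf2, Prdm16, Klf15 and Srebf1. For each one, the array's transcript cluster was used whose annotation lists that symbol alone, and the brightest where there were several. This gave 9 of the 10 genes, out of 30142 named genes in all. The only cluster that lists Srebf1 also lists a microRNA gene, Mir6922, so Srebf1 was not measured by the rule.

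RNA came from cultured stromal cells of adipose tissue, which resemble fibroblasts and include the precursors of fat cells, and 1 sample per genotype was measured on 1 expression array each. The Wisp1 KO sample came from mice in which exons 1 to 5 of Wisp1 on chromosome 15 had been floxed and which were crossed to a mouse line labelled Cre-neo, giving a global knockout. The WT sample came from wild-type mice. Both are labelled as C57BL/6J background, 6 to 10 week old, inguinal fat, and both cultures were grown in DMEM with 15% fetal bovine serum. No adipogenic inducer is named in the labels, and they do not give the number of mice behind a sample. The study concerned cartilage formation in heterotopic ossification, and the comparison asked which transcripts differ when Wisp1, now named Ccn4, a secreted matricellular protein, is missing.

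Adipogenesis runs as a cascade. ZFP423, EBF1 and EBF2 mark and prime the precursor, hormonal cues raise C/EBP beta and C/EBP delta early, and these act on the genes of PPARG and C/EBP alpha, which then keep each other on and drive the fat cell programme together. KLF15 and SREBP-1 act in the differentiating cell, on glucose transporter and fatty acid genes among others, and PRDM16 with EBF2 directs precursors to brown and beige fat.

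The promoters of Pparg and Cebpa are shown because C/EBP proteins act on the Pparg gene in this cascade, and Pparg and Cebpa had the 2 largest differences among the regulators. A promoter of Zfp423 that holds the C/EBP motif is shown as well. The sequences are from RefSeq, build GRCm38.p6, and run from 250 bases before to 50 after an annotated start, 5′ to 3′ on the gene's strand. Capitals mark each match to the C/EBP motif TTGCNNAA on either strand. The Pparg window is chr6:115421816-115422115 (plus strand), the most downstream of 3 annotated starts, 60922 bases from the first; this downstream start makes the fat-cell isoform PPARG2. The Zfp423 window is chr8:87959546-87959845 (minus strand), the more upstream of 2 annotated starts that lie 155156 bases apart. The Cebpa window is chr7:35119043-35119342 (plus strand).
Pparg: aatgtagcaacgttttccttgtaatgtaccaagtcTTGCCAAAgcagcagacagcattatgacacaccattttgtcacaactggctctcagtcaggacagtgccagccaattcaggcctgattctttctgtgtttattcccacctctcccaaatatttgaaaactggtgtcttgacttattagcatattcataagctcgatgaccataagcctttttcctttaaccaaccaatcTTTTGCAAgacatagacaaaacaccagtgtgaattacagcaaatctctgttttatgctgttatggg
Zfp423: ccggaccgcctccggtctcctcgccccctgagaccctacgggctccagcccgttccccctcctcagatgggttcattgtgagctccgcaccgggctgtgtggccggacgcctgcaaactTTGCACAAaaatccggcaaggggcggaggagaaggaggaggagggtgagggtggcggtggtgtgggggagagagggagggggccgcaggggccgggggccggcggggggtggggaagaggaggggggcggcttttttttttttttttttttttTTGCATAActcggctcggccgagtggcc
Cebpa: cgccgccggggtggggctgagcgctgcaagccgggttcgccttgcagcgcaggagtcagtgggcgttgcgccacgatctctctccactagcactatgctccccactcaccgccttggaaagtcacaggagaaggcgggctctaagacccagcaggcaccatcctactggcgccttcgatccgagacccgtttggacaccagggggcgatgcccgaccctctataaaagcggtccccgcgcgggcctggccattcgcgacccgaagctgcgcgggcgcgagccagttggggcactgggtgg

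The Pparg window held 2 matches, the first starting at base -215 and the second at base -16 from the start, and the Zfp423 window held 2, starting at bases -131 and 23. The Cebpa window held none. Of the 14 annotated promoters of 8 of the regulators, 2 held the motif, against 10.8% of all 32851 promoters in the table. These 2 are the Pparg and Zfp423 windows shown, and the other annotated promoter of Zfp423 held no match. The EBF motif CCCNNGGG, searched on both strands, was in 3 of these 14 promoters, 1 each of Cebpb, Zfp423 and Srebf1, against 13.7% of all promoters. The E box CACGTG occurred 3 times in the Klf15 promoter and in no other promoter of the regulators, against 7.15% of all promoters holding at least 1. The SREBP motif TCACNCCAC was in none of the 14 windows and in 1.24% of all promoters. A match describes letters in a window and does not show that a factor binds there. The array gives 1 value for Pparg, so its starts are not told apart in what follows.

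The array values are log2 signals after RMA, a procedure that corrects background, puts arrays on a common distribution and summarises the probes of a cluster. With 1 array per genotype there is no replicate spread, no test and no p-value, and each difference compares these 2 arrays and not the genotypes. Each difference was instead set beside those of the 1000 named genes nearest in mean signal, the gene itself among them. The spread over these genes places a difference among others and is not a replicate error. The targeted gene served as a check of the labels: Wisp1 (Ccn4) had a signal of 5.40 in the Wisp1 KO array and 7.79 in the WT array, a difference of -2.39. All 9 regulators were above the median signal of named genes, 4.65, on the mean of the 2 arrays. A signal depends on a cluster's own probes, so levels are compared between arrays and not between genes. A lower signal in a culture can come from fewer cells of a type or from less RNA per cell, which cannot be told apart.

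Few of the regulators differed much. Cebpa was 1.21-fold lower in the Wisp1 KO array, the only one of the 9 past 1.2-fold. Pparg, Cebpd, Ebf2 and Zfp423 were higher by between 1.09-fold and 1.15-fold, Prdm16 was 1.10-fold lower, and Klf15, Cebpb and Ebf1 were within 1.04-fold. In all, 6 were higher and 3 lower, with a median difference of 0.05 on the log2 scale. Of all named genes 47.0% had a higher and 47.4% a lower signal, and their median difference was 0. All 9 regulators belong to the 15072 brighter genes, whose mean signal reached 4.65. The median difference of these brighter genes was 0.03. How many of them were higher or lower was not counted, so the split of the regulators has no reference among genes of like signal. The same holds for the higher and lower counts of each group below. The split of the regulators was 5 higher and 4 lower with quantile normalization or with loess centring on the mean signal. It was 7 higher and 2 lower with the arrays centred on their medians. None of the regulators was higher by 1.2-fold or more, against 4.70% of all named genes and 6.40% of those at or above the median signal. The 1 that was lower by 1.2-fold or more compares with 5.35% of all named genes and 4.27% of those at or above the median signal. None reached 2-fold in either direction, against 0.0332% of named genes higher and 0.0564% lower. With 9 genes, such shares place about as many past 1.2-fold as were seen.

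**Figure D1:**
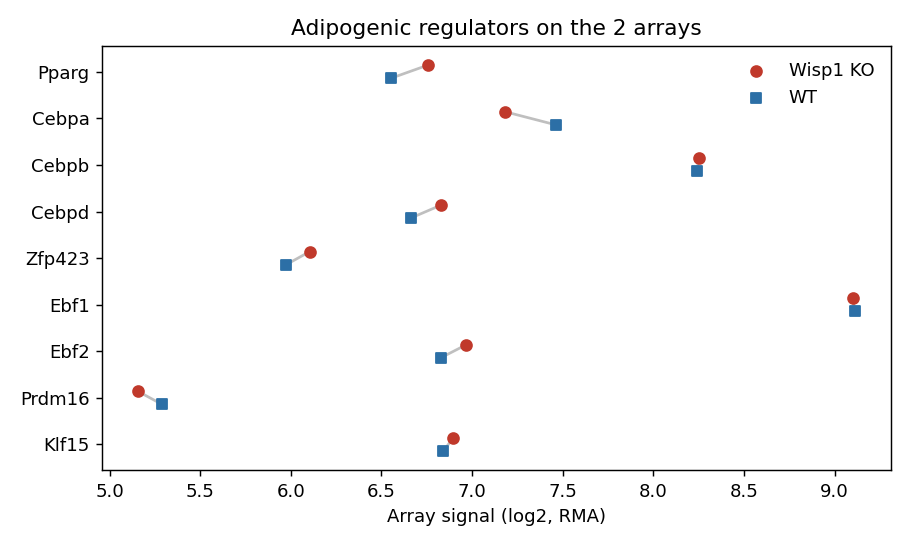
Array signal (log2, RMA) of the 9 measured regulators, 1 row per gene, with a circle for the Wisp1 KO array and a square for the WT array (1 array each, no error bars). Cebpa shows the widest gap, with the Wisp1 KO array at 7.18 and the WT array at 7.46, and the points of Cebpb and Ebf1 nearly coincide.

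PPARG, the nuclear receptor without which fat cells do not form, had a higher transcript signal in the knockout culture. Pparg was at 6.75 in the Wisp1 KO array and at 6.55 in the WT array. The difference of 0.20, or 1.15-fold higher, was the highest among the regulators. Among the 1000 genes nearest in signal, 18.1% differed at least as far from 0, and the central 68% of them ran from -0.09 to 0.17. Pparg lay just outside that range and inside the central 95%, which ended at 0.39. In all, 4 of the 9 regulators lay outside the central 68% of their own neighbours, and 0 outside the central 95%.

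C/EBP alpha, the leucine zipper factor that maintains Pparg expression and insulin sensitivity in fat cells, went the other way. Cebpa was at 7.18 in the Wisp1 KO array and at 7.46 in the WT array, a difference of -0.28. Of the genes nearest in signal 9.1% differed as far, the smallest such share among the regulators, and the central 95% began at -0.33. Pparg minus Cebpa was -0.43 within the Wisp1 KO array and -0.91 within the WT array. This shift of 0.48 (1.40-fold) cannot be changed by adding a constant to a whole array. Pparg had the highest and Cebpa the lowest difference of the regulators, so no other pair of them could shift further. The shift was not set beside those of other gene pairs.

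The early C/EBP genes did not follow Cebpa. Cebpd, which is induced by glucocorticoid early in differentiation, had 6.83 in the Wisp1 KO array and 6.66 in the WT array, a difference of 0.17, and 23.0% of the genes nearest in signal differed as far. Cebpb, induced early alongside it, had 8.25 in the Wisp1 KO array and 8.24 in the WT array. Its difference of 0.01 turned to -0.01 when the arrays were quantile-normalized and to -0.02 with loess centring on the mean signal, so it has no direction. Cebpd minus Cebpa shifted by 0.45 between the arrays and Cebpb minus Cebpa by 0.29, again with no other gene pairs as a reference.

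Across the whole C/EBP family, Cebpa was the only one of 6 measured genes with a lower signal in the knockout culture, joined by Cebpb under quantile normalization and loess centring. Ddit3, which encodes CHOP, a family member that blocks the DNA binding of its partners and is induced by stress, had the largest difference at 0.33, with 8.94 in the Wisp1 KO array and 8.61 in the WT array. Cebpg, a short family member that pairs with the others, stood at 7.56 in the Wisp1 KO array and 7.34 in the WT array (0.22). Cebpe, known from granulocytes, was dim, meaning below the median signal, at 3.84 in the Wisp1 KO array and 3.72 in the WT array (0.12).

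**Figure D2:**
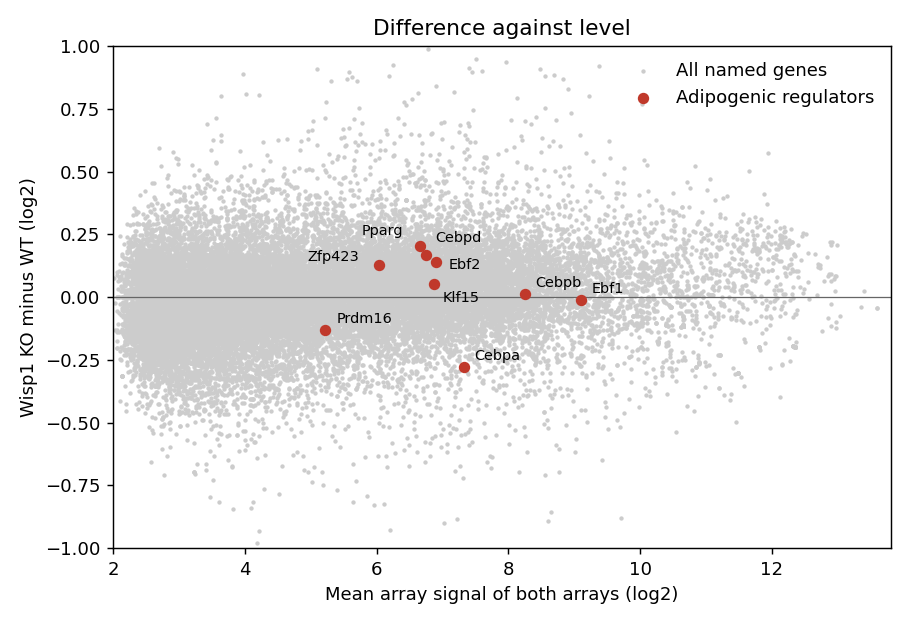
Difference between the arrays (Wisp1 KO minus WT, log2) against the mean signal of both arrays (log2), with each named gene as a grey point and the 9 regulators as labelled red points. All 9 regulators lie within the cloud of genes of like signal, with Cebpa lowest at -0.28 and Pparg highest at 0.20, and 27 genes beyond 1 in either direction are not drawn.

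The genes that mark committed precursors differed little. ZFP423, a zinc finger factor that raises Pparg expression in preadipocytes and holds back the thermogenic programme, had a signal of 6.10 in the Wisp1 KO array and 5.98 in the WT array. The difference of 0.13 was matched or exceeded in size by 34.7% of the genes nearest in signal. Ebf2, which selects brown and beige precursors, had 6.97 in the Wisp1 KO array and 6.83 in the WT array (0.14), with 29.3% of its neighbours in signal as far from 0. Ebf1, a close relative that takes part in white fat formation, had 9.10 in the Wisp1 KO array and 9.11 in the WT array. Its difference of -0.01 became 0.0045 when the arrays were centred on their medians, so Ebf1 has no direction either.

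The relatives of these genes spread further than the regulators themselves. Zfp521, a paralogue of Zfp423 that holds precursors back from becoming fat cells, was at 7.56 in the Wisp1 KO array and 7.19 in the WT array, a difference of 0.36. Ebf4 was at 5.50 in the Wisp1 KO array and 5.81 in the WT array (-0.31), and Ebf3 at 7.62 and 7.58 in the same order (0.04, with the sign turned under quantile normalization and loess centring). Zfp423 minus Zfp521 was -1.45 in the Wisp1 KO array and -1.22 in the WT array, so Zfp521 had the larger of the 2 differences.

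Prdm16, the zinc finger coregulator of brown and beige fat, went opposite to Ebf2. It was at 5.16 in the Wisp1 KO array and at 5.29 in the WT array, a difference of -0.13, and 32.0% of the genes nearest in signal differed as far. Of the 14 measured PRDM genes 10 had a higher and 4 a lower signal (median 0.03). Prdm6, a family member of smooth muscle, was lowest at 5.68 in the Wisp1 KO array and 6.03 in the WT array (-0.36), and Prdm12 highest (0.18). Of 7 measured genes of PRDM16 partners, Cebpb among them, 6 were higher, with a median of 0.09, and 4 were higher after quantile or loess scaling. Med1, a Mediator subunit that contacts nuclear receptors, was the highest of them at 0.29, and Ppargc1a, the coactivator of mitochondrial genes, was dim and the lowest (-0.23).

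Klf15, a Krüppel-like factor that raises the insulin-responsive glucose transporter gene in fat cells, had 6.90 in the Wisp1 KO array and 6.84 in the WT array. The difference of 0.05 was matched or exceeded in size by 67.9% of the genes nearest in signal. In the KLF family, all 17 genes were measured. Their median was 0.05, and 13 had a higher, 3 a lower and 1 an equal signal. Only Klf1, a red cell factor that was dim here (0.29), and Klf13 (0.28), at 6.67 in the Wisp1 KO array and 6.39 in the WT array, passed 1.2-fold, against 4.70% of all named genes that were higher by as much. The count was 1 after quantile normalization, after loess centring and with either filter on dim genes. Klf4 and Klf5, which act early in adipogenesis and were chosen here after their values were seen, differed by -0.07 and -0.02.

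**Figure D3:**
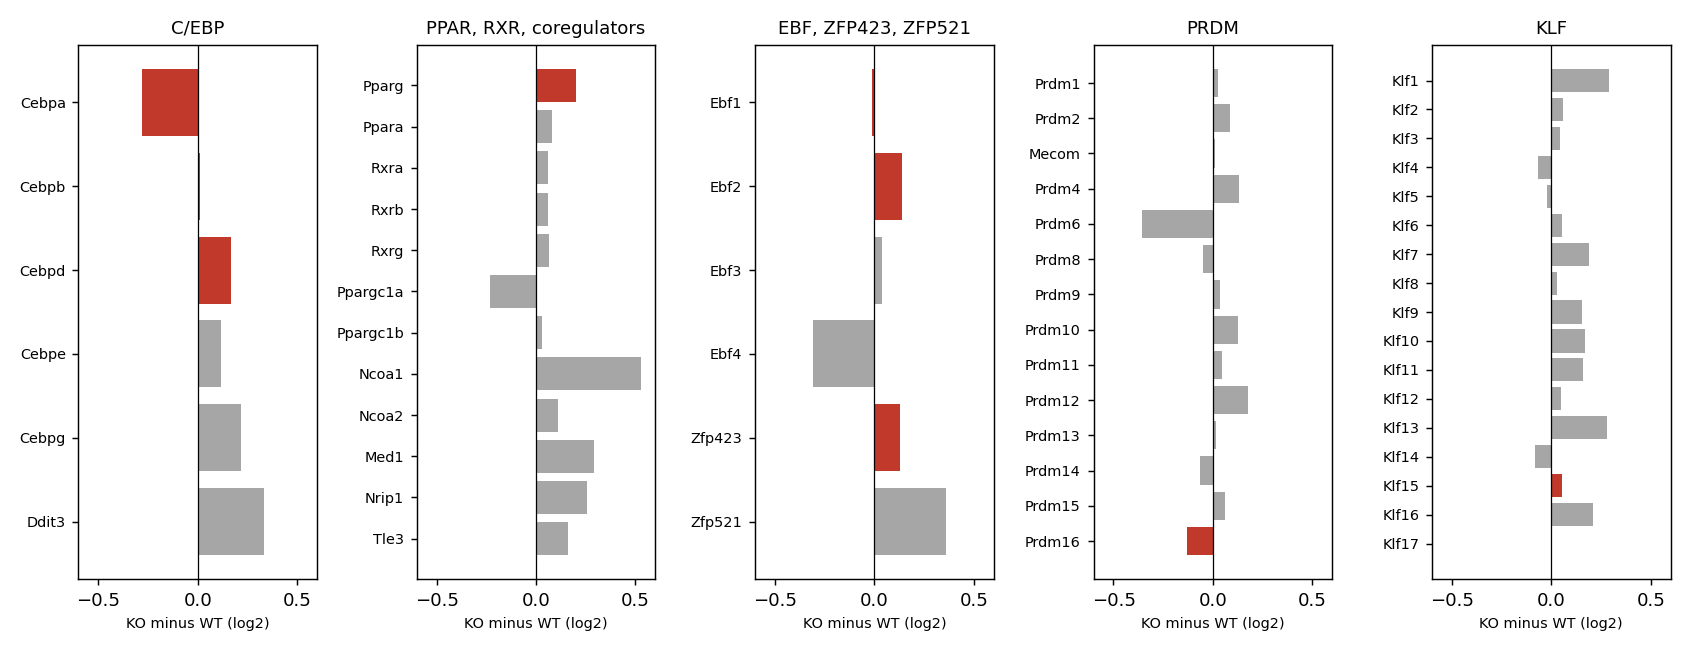
Difference between the arrays (Wisp1 KO minus WT, log2) for every measured gene of 5 groups, with the regulators in red and their relatives or coregulators in grey; 1 array per genotype, so bars carry no error. Cebpa is the only C/EBP gene below 0 (Cebpb joins it after quantile or loess scaling), Ncoa1 has the longest bar at 0.53, and Klf17 has no bar because its value was the same on both arrays.

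PPARG binds DNA as a pair with a retinoid X receptor and acts through coregulators. Of 15 such genes on the list, Pparg included, 12 were measured, 11 with a higher and 1 with a lower signal (median 0.09). Without Pparg, 10 were higher and 1 lower (median 0.08), against 47.0% of all named genes higher and 47.4% lower. The receptor genes Rxra (7.62 in the Wisp1 KO array, 7.56 in the WT array), Rxrb (6.44 and 6.38 in the same order) and the dim Rxrg (4.34 and 4.28) each differed by 0.06, and Ppara by 0.08 at a dim signal. Ncoa1, a steroid receptor coactivator, was at 7.39 in the Wisp1 KO array and 6.86 in the WT array, a difference of 0.53 that 1.9% of the genes nearest in signal matched or exceeded in size. Med1 was at 7.27 in the Wisp1 KO array and 6.98 in the WT array (0.29).

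Genes that PPARG activates in fat cells did not all share the direction of Pparg. Of 19 measured, 6 were higher, 12 lower and 1 equal, with a median of -0.06. Angptl4, a secreted inhibitor of lipoprotein lipase that is also induced by fasting and low oxygen, was at 6.99 in the Wisp1 KO array and 6.38 in the WT array (0.61). Adipoq, the adiponectin gene, was at 3.86 in the Wisp1 KO array and 4.50 in the WT array, a dim signal and a difference of -0.64. Of 4 other targets, chosen after their values were seen, the lipoprotein lipase gene Lpl was 0.23 higher, and the monoglyceride lipase gene Mgll (-0.32), the lipid droplet gene Plin4 (-0.24) and the fatty acid binding protein gene Fabp4 (-0.11) were lower.

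Mature fat cell markers were largely dim, 8 of 10 measured lying below the median signal, with Retn, the resistin gene, at 3.81 in the Wisp1 KO array and 4.90 in the WT array (-1.08). Of these 10 markers 3 had a higher and 7 a lower signal, giving a median of -0.08. Their summed log2 signal was 42.54 in the Wisp1 KO array and 44.66 in the WT array. Retn and Adipoq (-0.64), both dim, make up most of that gap, and the other markers differed by between -0.18 and 0.05. With genes of dim mean signal left out, the median was 0.022 over 2 genes. Macrophages also use Pparg, Cebpa and Cebpb. Of 12 macrophage markers 9 were higher, 2 lower and 1 equal, against 47.0% of all named genes higher and 47.4% lower. Their summed log2 signal was 57.63 in the Wisp1 KO array and 53.27 in the WT array. Of these 12 markers 7 were dim. Lyz2 (1.29), Fcer1g (0.90) and the dim Ctss (0.63) led them. The receptor genes Adgre1 and Csf1r, chosen after their values were seen, were also dim and differed by -0.08 and 0.01. The part of either cell type in the values of the regulators was not tested.

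Of the 14 measured stromal markers, 12 had a mean signal at or above the median of all named genes, and Dpp4 and Nt5e were dim. Their signals lay between 2.79 and 11.90 in the Wisp1 KO array and between 2.79 and 11.40 in the WT array. Among the brighter ones, and chosen after their values were seen, Pdgfrb was at 10.49 in the Wisp1 KO array and 10.38 in the WT array and Thy1 at 10.43 and 10.34 in the same order. Of the 14, 8 were higher, 5 lower and 1 equal, with a median of 0.01, Lum highest (0.60) and Dlk1 lowest (-0.58). By 1.2-fold or more, 3 of the 14 were higher and 3 lower, against 4.70% and 5.35% of all named genes. Among genes at or above the median signal the shares were 6.40% and 4.27%. The median near 0 thus hides differences in both directions. Pericyte and smooth muscle markers had a median of -0.20, with Mcam (-0.69) and Myh11 (-0.51) lowest. Endothelial markers had a median of 0.07, and Cdh5 (0.80) and Emcn (0.80) led them at dim signals. The medians of lymphocyte (-0.08), mesothelial and epithelial (-0.03), skeletal muscle (-0.04) and Schwann cell markers (0.05) were near 0; their most different members were Ms4a1 (-0.25) and Cd79a (0.28), Krt18 (-0.35) and Krt5 (-0.11), Tnnt3 (0.46) and Des (0.41), and Ngfr (0.45) and S100b (-0.15).

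SREBP-1, the product of Srebf1, and its relative SREBP-2 are membrane-bound factors that are freed by proteases to activate fatty acid and cholesterol genes. The cluster that lists Srebf1 together with Mir6922 had 6.86 in the Wisp1 KO array and 6.84 in the WT array, a difference of 0.02 that belongs to no single gene. Of the 8 measured regulators of this pathway 4 were higher and 4 lower. Srebf2 was at 8.41 in the Wisp1 KO array and 8.22 in the WT array (0.19), and Insig1, whose protein retains SREBPs in the endoplasmic reticulum and whose gene they induce, at 8.19 and 7.91 in the same order (0.28).

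The 2 branches of target genes had different medians. All 13 measured genes of cholesterol synthesis and uptake were higher, with a median of 0.24, and Idi1 and Cyp51 led them (0.33 each). All 13 were at or above the median signal of named genes, where the median difference was 0.03. Of them 6 were higher by 1.2-fold or more, against 4.70% of all named genes and 6.40% of those at or above the median signal. Under quantile normalization 4 and under loess centring 3 of the 13 passed 1.2-fold. In fatty acid and triglyceride synthesis, the branch tied to SREBP-1, 8 of 17 genes were higher, 7 lower and 2 equal, with a median of 0. Elovl5, a fatty acid elongase, was at 9.60 in the Wisp1 KO array and 9.29 in the WT array (0.31), and Acaca, which makes malonyl-CoA, at 7.08 and 6.79 in the same order (0.29). Fasn and Scd1, main enzymes of the branch chosen after their values were seen, each differed by -0.03. A difference between the 2 branches was not tested.

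Upstream of the cascade, 15 of 20 measured early inducers had a higher and 5 a lower signal (median 0.12). Of all named genes 47.0% were higher and 47.4% lower. Xbp1, an unfolded protein response factor that also takes part in adipogenesis, was at 8.53 in the Wisp1 KO array and 8.24 in the WT array (0.29), and the ligand gene Bmp2 was dim, at 3.82 and 4.19 in the same order (-0.36). Repressors of adipogenesis were about evenly divided, with 10 of 21 higher and 11 lower and a median of -0.0013, which became 0.014 with median centring. Dlk1, a membrane protein that restrains preadipocytes, was the lowest at 6.45 in the Wisp1 KO array and 7.03 in the WT array (-0.58), and Zfp521 the highest.

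Glucocorticoid is a standard inducer of Cebpd and Klf15. Of 11 glucocorticoid-responsive genes, including these and Cebpb, 7 had a higher and 4 a lower signal (median 0.05). Without the regulators, 4 of the remaining 8 were higher and 4 lower (median 0.0092). Sgk1, a kinase gene, was at 6.53 in the Wisp1 KO array and 6.20 in the WT array (0.34), while Pdk4, which limits glucose oxidation, was at 7.08 and 7.42 in the same order (-0.33). Brown and beige fat genes, Ebf2 and Prdm16 included, were mostly dim (11 of 18). Of them 8 were higher, 9 lower and 1 equal, or 10 higher and 8 lower under each of the 3 other scalings. The uncoupling protein gene Ucp1, chosen after its values were seen, was near the lower end of the signal range at 2.95 in the Wisp1 KO array and 3.01 in the WT array. Dio2, a thyroid hormone activating enzyme, had the largest difference at 3.71 in the Wisp1 KO array and 4.53 in the WT array (-0.82), and Zic1, a brown fat marker, was also lower (-0.31), both dim.

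**Figure D4:**
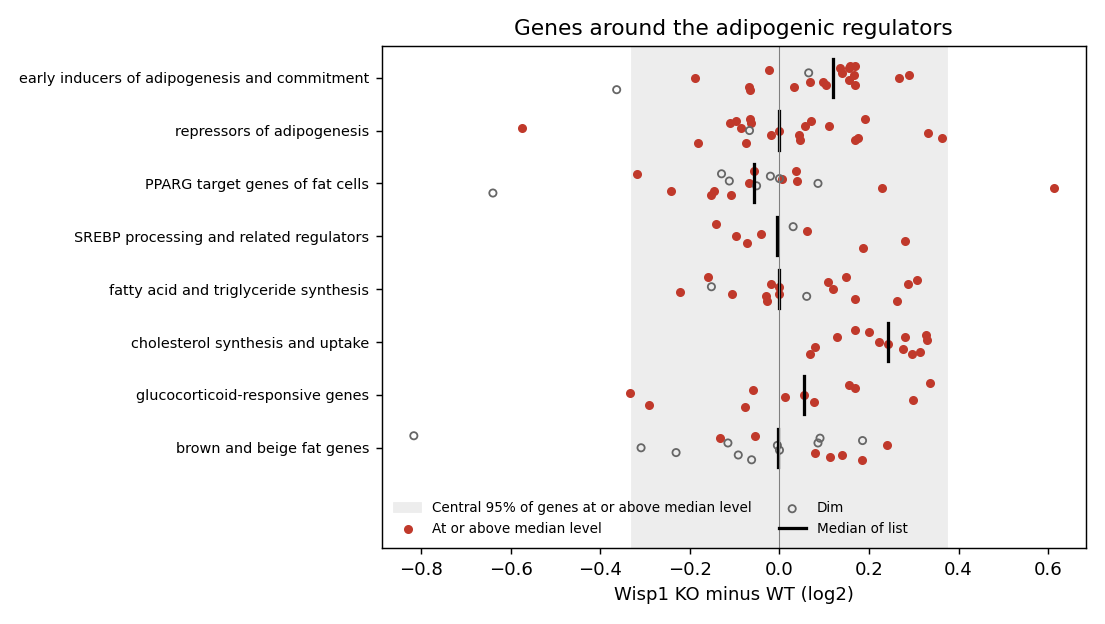
Difference between the arrays (Wisp1 KO minus WT, log2) for each measured gene of 8 groups around the regulators, with filled points for genes at or above the median signal, open points for dim genes and a black bar for the median of the group. The grey band covers the central 95% of the 15072 named genes whose mean signal was at least the median, from -0.33 to 0.37; cholesterol genes lie wholly right of 0, and PPARG targets lie on both sides.

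Over the 14 groups together, 170 genes were measured, which include the 9 measured regulators. Of them 21 were higher and 11 lower by 1.2-fold or more, with Cebpa among the lower. Of all named genes 4.70% were higher and 5.35% lower by as much (6.40% and 4.27% of those at or above the median signal). These shares were taken before any further scaling. The counts moved with the scaling: centring on the medians gave 22 higher and 11 lower, quantile normalization 11 higher and 12 lower, and loess centring 10 higher and 12 lower. Before such scaling, the median difference was 0.03 over the 15072 genes whose mean signal was at least the median.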

How the data were processed

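Total RNA of 2 cultures was labelled with biotin for an Affymetrix expression array, per the labels. The authors deposited log2 values per transcript cluster, made with RMA in Partek, per the submitters' processing notes; versions, the arrays normalized together and the build of the array design are not given in the sources used here. That the scale is log2 follows from the range of the values. Of 65956 clusters 30604 list 1 gene symbol; symbols were updated through Entrez IDs (22818 found, 827 changed), and the brightest cluster per gene was kept (355 of 30142 genes had several). Differences are Wisp1 KO minus WT, with no further normalization. The number of arrays limits the precision.

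Genes named are the regulators, Wisp1, all C/EBP, EBF and PPAR/RXR receptor genes, and in each other list the genes past 1.5-fold and at least the 2 most different; others are marked as chosen later. The regulators and lists were chosen with earlier results of these data known. Computations used Python 3.11.15, numpy 2.4.6, pandas 2.3.3, statsmodels 0.14.6 (loess, span 0.3) and matplotlib 3.10.9, and the procedure was tested on simulated data. Alternatives covered normalization, cluster choice, filters on dim genes, the mean and fold sizes.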

Additional observations from a re-analysis of the deposited data

How the results depend on the processing

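The differences of Pparg, Cebpa, Cebpd, Zfp423, Ebf2, Prdm16 and Klf15 kept their sign under the 3 normalizations. The 2 other alternatives run for single genes were the mean over clusters and keeping clusters of several symbols. Each regulator had 1 cluster of its own, so the first of these could not change its value. The second left every regulator's value the same, so neither bears on how stable the signs are. Pparg ranged from 0.15 to 0.22, Cebpa from -0.33 to -0.26 and Klf15 from 0.01 to 0.07. Cebpb turned to -0.013 with quantile normalization and to -0.025 with loess centring, and Ebf1 to 0.0045 under median centring. The median of the regulators ranged from 0.0093 to 0.069. With 1.5-fold or 2-fold in place of 1.2-fold, 0 regulators were lower. Of the genes of the 14 groups, regulators included, 21 were higher and 11 lower by 1.2-fold. The higher count was 11 after quantile normalization and 10 after loess centring, and the lower count was 7 with either filter on dim genes. A fold of 1.5 left 1 higher and 2 lower, and 2-fold left 0 and 0. Medians that changed sign were those of the SREBP regulators (0.0098 with median centring, 0.011 with several-symbol clusters kept, against -0.0053), of the repressors (0.014 with median centring, 0.021 with either filter on dim genes, against -0.0013), of brown and beige fat genes (0.013 with median centring, 0.021 with quantile normalization, 0.023 with loess centring, 0.11 with either filter, against -0.0024), and, with dim genes left out, of mature adipocyte markers (0.022 by the mean, 0.0065 by the brighter array), endothelial markers (-0.074 by either) and mesothelial and epithelial markers (0.016 by either), which then held 2 or 3 genes each. The cause of the changes under normalization was not tested. No paired analysis was possible because each genotype has 1 array. Low signal limits the dim genes, and RMA hides a shift shared by most genes.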
